A study of Homo sapiens with 6 samples.

Results

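Integrins are cell surface receptors that hold cells to the extracellular matrix, and each receptor is a pair of an α and a β subunit. The data described here are the 10 integrin subunit genes ITGA2, ITGA3, ITGA4, ITGA5, ITGA6, ITGAV, ITGB1, ITGB3, ITGB4 and ITGB5 on Affymetrix GeneChip Human Genome arrays. All probe sets that the array's annotation gives to one of these symbols alone were taken, which gave 29 of the 22215 probe sets tested. That rule used no measured value, but the 10 genes themselves were chosen with earlier results of these data known. The RNA came from SUM-159 (SUM159 in the sample labels), a line of triple-negative breast cancer cells, which lack the estrogen and progesterone receptors and amplified HER2. The cells had been stably transfected with an empty vector as control, or with SH3GL2 in the same pcDNA 3.1 plasmid, and each group had 3 arrays. SH3GL2 encodes endophilin A1, a protein that bends membranes during endocytosis. The study describes its SH3GL2 transfectants as stable clones kept in G418, and the sources used here do not say how many clones were arrayed or whether the triplicates were separate cultures. The p-values therefore measure the spread between these arrays, which may be technical.

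The subunits fall into classes by what their receptors hold. ITGA2 (α2) pairs with β1 to bind collagen, ITGA3 (α3) and ITGA6 (α6) form laminin receptors, and ITGB4 (β4) pairs with α6 in hemidesmosomes, the junctions that anchor epithelial cells to the basement membrane. ITGA5 (α5), ITGAV (αv), ITGB3 (β3) and ITGB5 (β5) form receptors that recognise the short RGD motif in fibronectin, vitronectin and other matrix proteins. ITGB1 (β1) is the partner of α2, α3, α5 and also αv, so it belongs to both classes, and ITGA4 (α4), found mainly on leukocytes, binds fibronectin and VCAM1. Integrins are continually taken in by endocytosis and returned to the surface. In breast epithelium α6β4 and α3β1 are the main contacts with laminin, and α2β1 with collagen.

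Values are log2 signals as deposited unless a fold is named, and array medians lay between 6.97 and 7.02. As a guide to the signal without a transcript, 108 probe sets for 66 genes of other organs had a median log2 signal of 5.38 and a 95th percentile of 7.12, called the reference here. The probe set of SH3GL2 itself averaged 3.22 with empty vector and 3.26 in the SH3GL2 arrays (log2 fold change 0.03, limma adjusted p = 0.909), both below the reference median, so this probe set could not check the labels and the groups were taken as labelled. Of the hormone receptor genes, ESR1 (6.70 in both groups) and PGR (3.63 and 3.59) lay below the reference, and ERBB2 (8.50 and 8.45) lay above it. Of 7 epithelial marker genes KRT8 and KRT18 lay above it, whereas EPCAM (4.07 with empty vector) and CDH1 (4.67) did not. All 7 mesenchymal markers did, and 0 of 6 leukocyte markers did.

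The 2 α subunits with the clearest increases below were ITGA2 and ITGA6. The sequences just before their annotated starts (RefSeq, GRCh38.p14) are shown because these genes rose together and no other member that rose had a window in the table used. Capitals mark the GC box GGGCGG, the E-box CACCTG or their opposite strands.
ITGA2, chr5:52989102-52989351, plus strand: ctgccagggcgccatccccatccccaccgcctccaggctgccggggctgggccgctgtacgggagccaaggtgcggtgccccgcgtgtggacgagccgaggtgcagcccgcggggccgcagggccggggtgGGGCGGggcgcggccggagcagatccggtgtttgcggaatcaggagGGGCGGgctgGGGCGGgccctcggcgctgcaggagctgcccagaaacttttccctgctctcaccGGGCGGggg
ITGA6, chr2:172427086-172427335, plus strand: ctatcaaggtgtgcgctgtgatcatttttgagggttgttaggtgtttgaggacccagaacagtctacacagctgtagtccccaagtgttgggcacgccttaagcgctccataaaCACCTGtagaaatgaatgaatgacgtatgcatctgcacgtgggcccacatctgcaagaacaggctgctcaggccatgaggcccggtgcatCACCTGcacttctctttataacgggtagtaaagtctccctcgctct
Matches to 3 motifs were sought on both strands in windows from 250 bases before to 50 bases after each start, with no overlap between kinds of motif among the members. The GC box is in 45.0% of the 35116 windows of the whole table, the E-box in 20.6% and the AP-1 motif TGANTCA in 7.71%. The ITGA2 window held 4 GC boxes, and the ITGA6 window held 2 E-boxes before the start and 1 GC box after it. A second ITGA6 window, 250 bases further on (chr2:172427336-172427635), held 3 GC boxes. It overlaps the first window, and the GC box of the first window is among these 3. One of the ITGB1 windows (chr10:32958181-32958480, minus strand), a gene that was lower, also held 3 GC boxes, and that of ITGA5 held 1 GC box and 1 AP-1 match. The 3 windows of ITGB5, a gene that was not called, held 3, 2 and 2 GC boxes, and 1 of them held an E-box. The windows of ITGA4 and ITGAV and the other ITGB1 window held none of the 3 motifs. GC boxes thus stood in windows of members that rose, of one that fell and of some that were not called. In all 7 of the 10 members had a window, 12 windows together.

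In the SH3GL2-transfected cells ITGA2, ITGA6 and ITGB4 rose, ITGB1 fell, and the other 6 genes did not pass the test on any probe set. Of the 29 probe sets 4 were higher and 1 was lower by limma (Benjamini-Hochberg adjusted over all probe sets, threshold 0.05). Over the whole array 1.99% of probe sets were higher and 2.18% lower. Taking for each gene the probe set with the highest mean, 3 of 10 members were higher and 1 was lower, whereas of all 11963 genes 2.54% were higher and 2.36% lower. The median log2 fold change was 0.13 over the 10 genes and 0.02 over all genes. The 3 arrays of each group did not overlap at 11 of the 29 probe sets, compared with 19.4% of all probe sets. A one-way analysis of variance, which judges each probe set by its own spread alone, called 0 of the 29, and over the whole array 33 higher and 44 lower.

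How much could be seen depended on the probe set. At 11 of the 29 at least 1 group mean exceeded that reference percentile, and every member but ITGA4 and ITGB3 had such a probe set. All 5 calls were among these 11, where the groups did not overlap at 9 and the median log2 fold change was 0.23. With the dim probe sets of the array left out of the fit, 5 of the 11 were higher and 1 lower. Over the array 431 of the 10742 probe sets kept were then higher and 434 lower by limma. The share without overlap was not counted for bright probe sets alone. The other 18, with group means of 3.10 to 6.73, gave log2 fold changes between -0.20 and 0.19 and none passed limma (0 with an unadjusted p below 0.05, and 0 by one-way analysis of variance). These dim probe sets say little about a change in either direction.

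**Figure D1:**
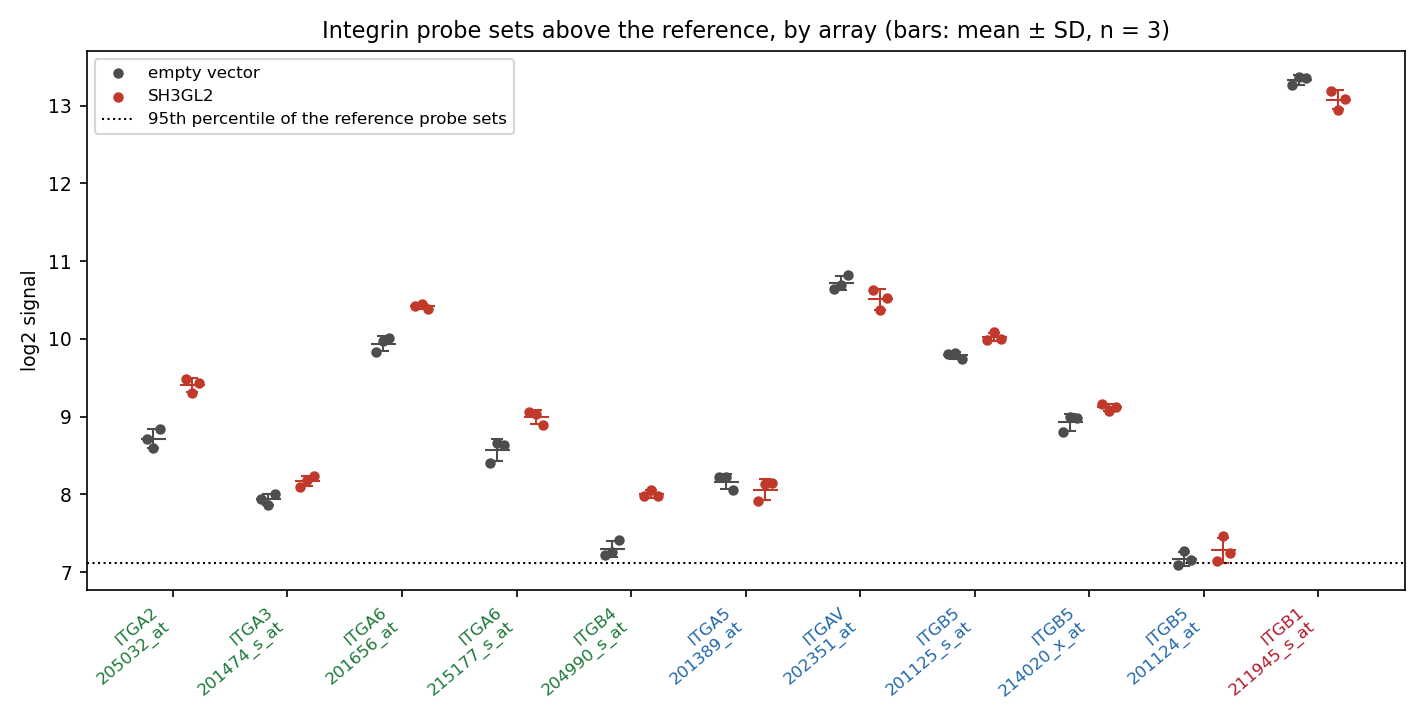
Log2 signal (vertical axis) of the 11 integrin probe sets above the reference in SUM-159 cells with empty vector (grey) or SH3GL2 (red), 1 point per array, with bars for mean ± SD (n = 3) and a dotted line for the reference percentile of 7.12. The SH3GL2 points of ITGA2, both ITGA6 probe sets and ITGB4 lie above all empty vector points, and those of ITGB1 lie below.

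Among the collagen and laminin receptor subunits, ITGB4 had the highest log2 fold change of the 29 probe sets. Its log2 signals were 7.22, 7.26 and 7.42 with empty vector and 7.98, 8.06 and 7.98 with SH3GL2. All SH3GL2 arrays lay above all empty vector arrays, which were themselves just above the reference. The log2 fold change was 0.71 (standard error 0.08, limma adjusted p = 0.000271), a 1.63-fold increase. This was 1 of 4 ITGB4 probe sets. The other 3 had group means of 4.82 to 6.03, below the reference, with log2 fold changes of 0.08, 0.06 and -0.06 (adjusted p = 0.828, 0.852 and 0.870). The ITGB4 increase thus rests on 1 probe set.

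ITGA2, whose product is the collagen-binding partner of β1, has a single probe set. Its log2 signals were 8.72, 8.60 and 8.84 with empty vector and 9.48, 9.30 and 9.44 with SH3GL2. The groups were well apart, and the lowest SH3GL2 array exceeded the highest empty vector array. The log2 fold change was 0.69 (standard error 0.08, 95% interval 0.51 to 0.86, limma adjusted p = 0.000238), a 1.61-fold increase.

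ITGA6, the laminin-binding partner of β4 and β1, was higher on both of its probe sets. The brighter one had 9.83, 9.98 and 10.01 with empty vector and 10.42, 10.45 and 10.39 with SH3GL2, with the SH3GL2 arrays nearly equal to each other. Its log2 fold change was 0.48 (standard error 0.06, 95% interval 0.34 to 0.62, limma adjusted p = 0.000691), a 1.40-fold increase. The dimmer one had 8.41, 8.66 and 8.64 with empty vector and 9.06, 9.03 and 8.89 with SH3GL2, again with no overlap. Its log2 fold change was 0.42 (standard error 0.08, limma adjusted p = 0.0126), close to that of the brighter one. The dimmer one was no longer called when empty vector replicate 1, the lowest of its arrays, was left out (0.34, adjusted p = 0.0533), nor when SH3GL2 replicate 1, the highest, was (0.39, adjusted p = 0.0543).

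ITGA3, the α subunit of the other laminin receptor of epithelial cells, had 7.94, 7.87 and 8.01 with empty vector and 8.10, 8.18 and 8.24 with SH3GL2. The groups did not overlap, but the difference was small. The log2 fold change of 0.23 (95% interval 0.06 to 0.40) did not pass (unadjusted p = 0.0113 and adjusted p = 0.141 from limma). At gene level 3 of the 4 collagen and laminin receptor subunits were therefore higher and the fourth was not called.

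The RGD receptor subunits gave no call. ITGA5, the α subunit of the main fibronectin receptor, had 8.22, 8.22 and 8.06 with empty vector and 7.91, 8.13 and 8.15 with SH3GL2. The groups overlapped, and the log2 fold change of -0.10 had a 95% interval from -0.29 to 0.09 (limma adjusted p = 0.659).

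ITGAV, the α subunit shared by the vitronectin receptors, had 10.64, 10.69 and 10.82 with empty vector and 10.63, 10.37 and 10.53 with SH3GL2. The groups did not overlap, though SH3GL2 replicate 1 and empty vector replicate 1 lay next to each other. The log2 fold change of -0.21 (95% interval -0.37 to -0.05) did not pass (unadjusted p = 0.0157 and adjusted p = 0.169 from limma).

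ITGB5, the β subunit of a vitronectin receptor, came closest to the threshold among the probe sets that were not called. Its brightest probe set had 9.81, 9.82 and 9.74 with empty vector and from 9.99 to 10.09 in the 3 SH3GL2 arrays, without overlap. The log2 fold change was 0.24 (95% interval 0.10 to 0.37, limma adjusted p = 0.0511), and with the dim probe sets of the array left out, which lowers the number of tests, the adjusted p was 0.0438. A further probe set had 8.80, 9.0 and 8.98 against 9.17, 9.08 and 9.12 (0.20, adjusted p = 0.199). The remaining pair had log2 fold changes of 0.11 (adjusted p = 0.682) and 0.19 (adjusted p = 0.423), the latter at means of 4.71 and 4.89. All 4 point estimates of ITGB5 were above 0.

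ITGB3, the β subunit of the platelet fibrinogen receptor and of αvβ3, had 7 probe sets, and none exceeded the reference. Their group means ran from 3.60 to 6.73 and their log2 fold changes from -0.13 to 0.13. The brightest had 6.76, 6.76 and 6.66 with empty vector and 6.70, 6.39 and 6.75 with SH3GL2 (-0.11, 95% interval -0.34 to 0.12, limma adjusted p = 0.696). No probe set of an RGD receptor subunit passed limma, and 0 passed the analysis of variance. With an unadjusted limma p below 0.05, 2 of 13 were higher, both of ITGB5, and 1 was lower, of ITGAV. Over the array 1831 of 22215 probe sets were higher and 1693 lower by that measure.

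ITGB1, the β subunit used by receptors of both classes, fell on its one bright probe set. The log2 signals were 13.26, 13.37 and 13.36 with empty vector and 13.19, 12.95 and 13.09 with SH3GL2. The groups did not overlap, and SH3GL2 replicate 1 lay close to the lowest empty vector array. The log2 fold change was -0.25 (standard error 0.06, 95% interval -0.38 to -0.13, limma adjusted p = 0.0275), a fall of 16.1% on the linear scale. The decrease was no longer called when 1 of 4 arrays was left out: SH3GL2 replicate 2 (-0.19, adjusted p = 0.0502), SH3GL2 replicate 3 (-0.26, adjusted p = 0.0964), empty vector replicate 2 (-0.23, adjusted p = 0.122) or empty vector replicate 3 (-0.24, adjusted p = 0.102). It was also lost without the intensity trend in limma (adjusted p = 0.169). The other 4 ITGB1 probe sets had means of 3.10 to 4.19, below the reference median, and log2 fold changes of -0.20 to 0.17.

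ITGA4 gave no signal to compare. Its 3 probe sets had group means of 3.19 to 3.74 and log2 fold changes from -0.02 to 0.03, with none past limma (0 with an unadjusted p below 0.05, and 0 by analysis of variance). The 6 leukocyte markers, with means of 3.75 to 6.32, also lay below the reference percentile, though above the ITGA4 means.

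**Figure D2:**
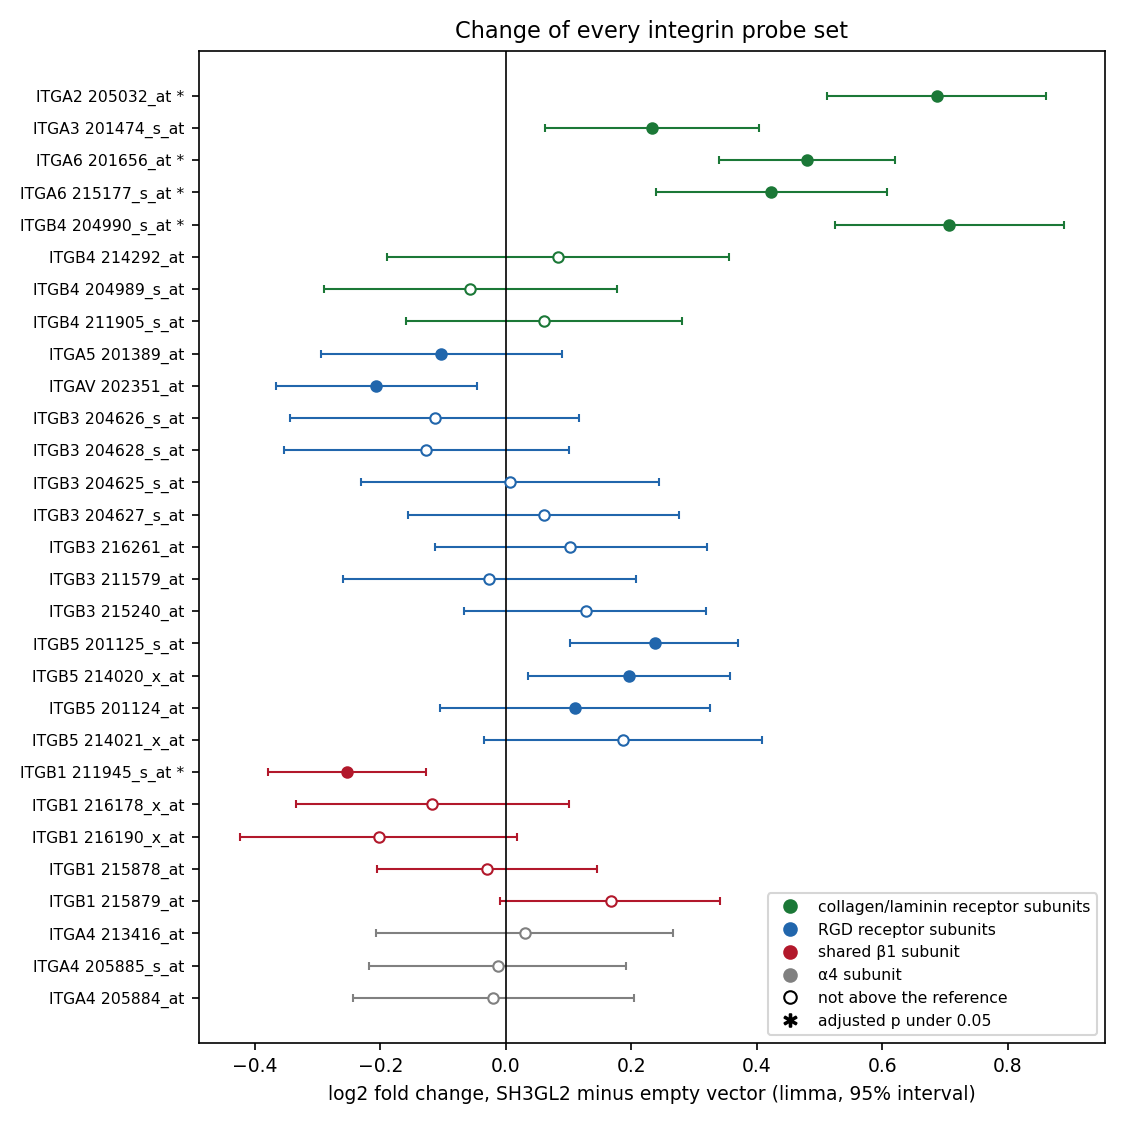
Log2 fold change, SH3GL2 minus empty vector, of all 29 integrin probe sets (points) with the 95% interval from limma (bars), coloured by receptor class, with open points for probe sets not above the reference and stars for an adjusted p under 0.05. The starred points are ITGA2, both ITGA6 probe sets and 1 of ITGB4 to the right of 0, and 1 of ITGB1 to the left.

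Set side by side, the classes differed in their counts and medians. At gene level the 4 collagen and laminin receptor subunits had 3 higher, 0 lower and a median log2 fold change of 0.58. ITGA10, a further collagen-binding subunit above the reference, was not counted among them (-0.16, limma adjusted p = 0.375). The 4 RGD receptor subunits had 0 called (1 higher and 1 lower with an unadjusted p below 0.05, and 0 by analysis of variance) and a median of -0.11. By limma 2.54% of all genes were higher and 2.36% lower, so 0 called of 4 is near those shares. Among probe sets above the reference, 4 of 5 were higher in the first class, with a median of 0.48. In the second 0 of 5 were called, with a median of 0.11. Probe sets of 1 gene are not separate members: 2 of the first 5 are of ITGA6 and 3 of the second 5 are of ITGB5. The 0.11 is itself an ITGB5 value. Over the array 1.99% of probe sets were higher and 2.18% lower. When a gene's probe sets were averaged in place of taking the brightest, the first median was 0.34 and the second -0.05, with the dim probe sets then counted in both classes.

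The same contrast was read array by array, as the mean over the 4 genes of the deviation from the empty vector mean. For the collagen and laminin receptor subunits it was -0.05, -0.05 and 0.10 in the empty vector arrays and 0.52, 0.52 and 0.54 in the SH3GL2 arrays. For the RGD receptor subunits it was 0.01, 0.02 and -0.03 with empty vector and -0.04, -0.10 and 0.01 with SH3GL2. The SH3GL2 arrays were thus nearly equal in the first class, and in the second they overlapped the empty vector arrays. The second mean joins opposite values, ITGB5 at 0.24 and ITGAV at -0.21, each without overlap of the groups. It also counts ITGB3, which lay below the reference. The first class minus the second gave -0.06, -0.07 and 0.12 with empty vector and 0.56, 0.63 and 0.53 with SH3GL2. Gene by gene the classes were less cleanly apart: the 95% interval of ITGB5 (0.10 to 0.37) overlapped those of ITGA3 (0.06 to 0.40) and ITGA6 (0.34 to 0.62). The difference between the classes was not tested, because the subunits are few and were grouped with the earlier results known.

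**Figure D3:**
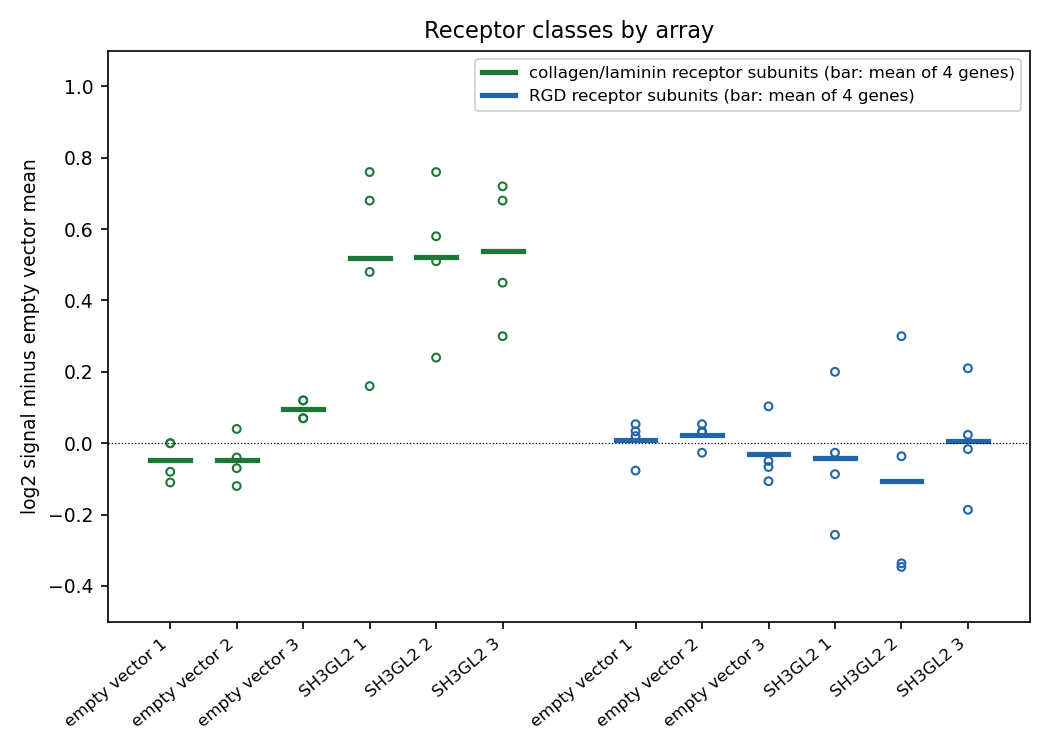
Log2 signal minus the empty vector mean of the same probe set (vertical axis) in each of the 6 arrays, for the 4 collagen and laminin receptor subunits (green) and the 4 RGD receptor subunits (blue), with circles for genes on their brightest probe set and bars for the mean of the 4. The green bars stand at 0.52 to 0.54 in the SH3GL2 arrays, and the blue bars stay between -0.10 and 0.02 in all 6 arrays.

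The remaining integrin subunits served as a comparison. Of 16 further genes of the family 13 had a probe set of their own, 19 probe sets in all, and none passed limma (0 with an unadjusted p below 0.05, and 0 by analysis of variance). Over all genes 2.54% were higher and 2.36% lower by limma, so 0 of 13 is near those shares. The median log2 fold change of these genes was -0.01. Only 3 genes exceeded the reference. ITGA10, a collagen-binding α subunit outside the class compared above, had means of 8.13 and 7.97 (-0.16, limma adjusted p = 0.375). Its groups did not overlap, with SH3GL2 the lower. The αE subunit gene ITGAE had 10.26 and 10.22 (-0.05, adjusted p = 0.784), and its partner ITGB7 had 7.56 and 7.55 (-0.01, adjusted p = 0.984). The log2 fold changes of the 13 genes ran from -0.16 to 0.11.

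The ligands of the receptors changed in both directions. Of 22 collagen and laminin chain genes measured 4 rose, 6 fell and 12 did not pass limma, with a median log2 fold change of -0.01. Of all genes 2.54% rose and 2.36% fell. The increases were of basement membrane chains. LAMB3, the β3 chain of laminin-332, to which α6β4 and α3β1 bind, rose from 7.15 to 7.87 (0.72, adjusted p = 0.000779). COL4A1 and COL4A2, the main chains of collagen IV, rose by 0.50 (2 of 2 probe sets, adjusted p = 0.00110) and 0.58 (1 of 2 probe sets, adjusted p = 0.000938). COL4A6, a further collagen IV chain, had 0.25 on 1 of 3 probe sets (adjusted p = 0.0434) and was no longer called when any 1 array other than SH3GL2 replicate 2 was left out (adjusted p = 0.0981 to 0.175), when arrays were centred on their medians (adjusted p = 0.0841), without the intensity trend (adjusted p = 0.129) or when the replicate number was a block (adjusted p = 0.0516).

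The decreases were of fibril-forming and microfibril collagens. COL6A3, a collagen VI chain, fell from 11.06 to 9.87 (-1.19, adjusted p = 9.71e-08). COL5A1 and COL5A2, chains of collagen V, had -0.95 (3 of 3 probe sets, adjusted p = 2.22e-05) and -0.50 (2 of 2 probe sets, adjusted p = 0.000557). COL1A1, a chain of collagen I and so a ligand of α2β1, had -0.66 (2 of 4 probe sets, adjusted p = 0.000380). The other pair that fell, named after their values were seen, were COL6A1 (-0.73, adjusted p = 0.000982) and COL3A1 (-0.80, adjusted p = 0.000951), the latter at means of 6.45 and 5.66, below the reference.

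Of 20 RGD ligand genes measured none rose in limma (1 with an unadjusted p below 0.05, and 0 by analysis of variance), 5 fell and the median was -0.07. The shares over all genes were 2.54% higher and 2.36% lower. THBS1, encoding thrombospondin 1, fell from 12.32 to 11.42 (-0.90, 4 of 5 probe sets, adjusted p = 2.18e-05). TNC, encoding tenascin C, had -0.39 (1 of 2 probe sets, adjusted p = 0.00490) and FN1, encoding fibronectin, the ligand of α5β1, had -0.31 (4 of 6 probe sets, adjusted p = 0.00592, and 0.0875 without the intensity trend). FBN1, encoding fibrillin 1, had -0.39 on 1 of 2 probe sets (adjusted p = 0.0217), with an SH3GL2 mean of 6.86 below the reference. TGFBI, a matrix protein named after its value was seen, had -0.18 (adjusted p = 0.0478). The count of 5 became 3 when replicate 1 of either group or replicate 2 of the empty vector group was left out, and also 3 without the intensity trend. FBN1 was no longer called when 1 of these arrays was left out, nor when SH3GL2 replicate 3 was left out (adjusted p = 0.0501 to 0.115).

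Mesenchymal markers moved with the groups beside these ligands. Of 7 such genes 4 were lower with SH3GL2, AXL (-0.49), ZEB1 (-0.62), FN1 and SPARC (-0.25, adjusted p = 0.0401), and FN1 is also an RGD ligand above. Over all genes 2.36% were lower. Without the intensity trend 2 of the 7 were lower, and by analysis of variance 1 was. All 7 were lower with an unadjusted limma p below 0.05, as were 904 of all 11963 genes. The mean log2 signal over the 7 was 11.97 to 12.05 in the empty vector arrays and 11.63 to 11.73 in the SH3GL2 arrays. None of the 7 was at or near the reference. The mean over 7 epithelial markers was 6.08 to 6.30 with empty vector and 6.17 to 6.26 with SH3GL2, with none past limma (1 higher with an unadjusted p below 0.05, and 0 by analysis of variance). The part of either in the integrin values was not tested, and on RNA from whole cultures a change in some cells and a change in every cell cannot be told apart.

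Of 35 adaptor and signaling genes inside the cell 1 rose and 1 fell, near the shares of all genes (2.54% higher and 2.36% lower), with a median log2 fold change of -0.02. FERMT1, encoding kindlin 1, which activates β subunits in epithelial cells, rose from 9.59 to 9.98 (0.39, 2 of 2 probe sets, adjusted p = 0.00415). TGFB1I1, encoding the focal adhesion adaptor Hic-5, had -0.32 (adjusted p = 0.0220) and was no longer called when replicate 1 or 3 of either group was left out (adjusted p = 0.0554 to 0.0945) or without the intensity trend (adjusted p = 0.0765).

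The study followed several focal adhesion proteins by Western blotting after SPANXB1 was silenced or overexpressed in other cell lines. The genes of these proteins were not called here on their brightest probe set, on RNA of SUM-159 cells transfected with SH3GL2. PTK2, VCL and RAC1 have 2 probe sets each and ACTN1 has 3, and the further ones were not counted. PTK2, encoding focal adhesion kinase, had 0.04 (95% interval -0.11 to 0.19, adjusted p = 0.853), and VCL, encoding vinculin, had 0.01 (-0.18 to 0.20, adjusted p = 0.968). The actin crosslinker gene ACTN1 had -0.15 (-0.28 to -0.03, adjusted p = 0.200, and 0.0322 without SH3GL2 replicate 2) and its relative ACTN4 had -0.17 (-0.34 to 0.01, adjusted p = 0.359). The small GTPase gene RAC1 had 0.02 (-0.06 to 0.11, adjusted p = 0.846). Of 9 genes for hemidesmosome anchors and for tetraspanins, which associate with laminin receptors, none passed limma, and their values ran from -0.26 to 0.18. This is near the shares of all genes (2.54% higher and 2.36% lower). With an unadjusted limma p below 0.05, 2 were lower, DST and CD63, named after their values were seen. By analysis of variance 0 were called.

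Of 25 genes of integrin endocytosis and recycling 1 rose and 2 fell, with a median of -0.03, beside 2.54% and 2.36% of all genes. SH3GL3, encoding endophilin A3, rose from 6.82 to 7.61 on 1 of 3 probe sets (0.80, adjusted p = 0.000278), with an empty vector mean below the reference, so the size of the change is uncertain. It is a paralog of the transfected gene, and the probe sequences were not analysed here. CAV1, encoding the caveolar coat protein caveolin 1, had -0.30 (2 of 2 probe sets, adjusted p = 0.00267, and 0.0693 without the intensity trend). DAB2, encoding a clathrin adaptor for β1 integrins, had -0.41 (4 of 4 probe sets, adjusted p = 0.0188) and was no longer called when replicate 1 (adjusted p = 0.0606) or 3 (adjusted p = 0.0895) of the empty vector group was left out, where 1 gene of the list fell, and without the intensity trend (adjusted p = 0.0700), where 0 fell. When SH3GL2 replicate 1 was left out the list had 2 higher and 3 lower. Over all 124 genes of the ligand, partner and further integrin lists 6 rose, 14 fell and the median was -0.04. The shares over all genes were again 2.54% higher and 2.36% lower.

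**Figure D4:**
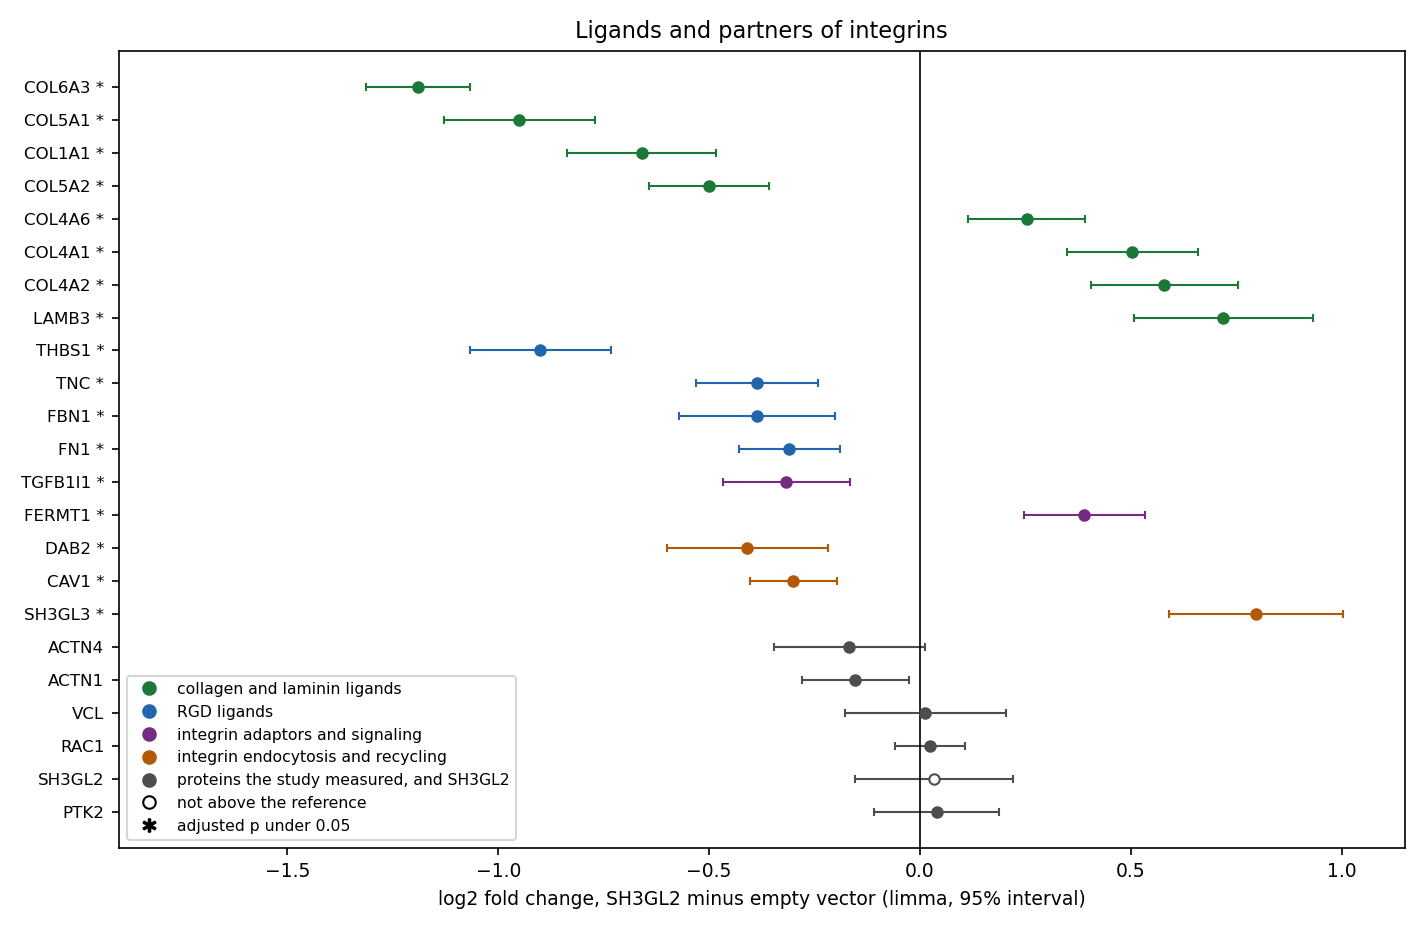
Log2 fold change, SH3GL2 minus empty vector, of the named ligand and partner genes on their brightest probe set (points) with the 95% interval from limma (bars), coloured by list, with stars for an adjusted p under 0.05 and an open point for SH3GL2, which is not above the reference. LAMB3 and the collagen IV chains lie to the right of 0, and the collagen I, V and VI chains and the named RGD ligands lie to the left.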

How the data were processed

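RNA of SUM-159 cells was hybridized by the authors to Affymetrix GeneChip Human Genome arrays, and the deposited values are log2 signals. The study used GCOS software, and MAS5 appears in the submitters' processing notes with no version. The scaling between arrays is not given in the sources used here. All 6 arrays were mapped to groups from their labels. Of 22277 probe sets 62 controls were left out. Probe sets with 1 symbol (19064) named genes, whereas 1043 had several symbols and 2108 none, and 0 symbols needed an update against RefSeq. Groups were compared on the values as deposited with limma 3.58.1 in R 4.3.3 (two-sided moderated test of lmFit and eBayes, variance prior following signal intensity, Benjamini-Hochberg over 22215 probe sets). Intervals and standard errors are those of limma. With 3 arrays per group an exact permutation test cannot go below p = 0.1, and the number of arrays limits the precision.

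The members, the lists (receptor classes, further integrins, ligands, adaptors, anchors and tetraspanins, endocytosis, markers and reference genes) and the tests were chosen with earlier results of these data known. Named genes were all members, the focal adhesion genes the study followed, SH3GL2, further integrins above the reference and, per list, up to 4 genes in each direction with the smallest adjusted p. A few others are said to be named after their values were seen.

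The alternatives were quantile normalization, centring on the median, 16 added before the logarithm, leaving out dim probe sets, no intensity trend, a one-way analysis of variance, a prior robust to outliers, a replicate block, averaging the probe sets of each gene and leaving out each array in turn. The fits were tested on simulated data. Motifs were counted with Python 3.11.15, and figures drawn with matplotlib 3.10.9.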

Additional observations from a re-analysis of the deposited data

How the results depend on the processing

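The one-way analysis of variance, which estimates the spread of each probe set from 6 arrays alone, called 0 member probe sets higher and 0 lower (33 and 44 over the array), and of the 124 ligand, partner and further integrin genes 0 higher and 2 lower. Without the intensity trend the ITGB1 decrease was lost, leaving 0 member probe sets lower, and 9 of the 124 genes were lower. The median of the collagen and laminin receptor subunits was 0.342 when a gene's probe sets were averaged. Leaving out 1 array gave 3 to 4 member probe sets higher, 0 to 1 lower, 5 to 6 of the 124 genes higher and 10 to 14 lower, and over the array 184 to 376 probe sets higher and 296 to 437 lower, against 441 and 485. ITGA2, ITGB4 and the brighter ITGA6 probe set kept their calls in the alternative fits of single probe sets other than the analysis of variance (adjusted p = 0.102, 0.0687 and 0.0941). Replicate numbers were not taken as pairs: residual correlations of arrays with the same number were -0.01, 0.13 and 0.15, and for 4 of 6 arrays the highest correlation was with their own number. A replicate block gave 4 member probe sets higher and 1 lower, 506 and 573 over the array, and of the named results it took the call from COL4A6 alone.

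Signs changed at uncalled values near 0. 1 probe set of ITGB3 had -0.007 with arrays centred on their median and -0.009 after quantile normalization. Over the fits that left out 1 array, the ITGA4 probe sets ran from -0.105 to 0.055, from -0.088 to 0.052 and from -0.042 to 0.138, those of ITGB3 from -0.105 to 0.095, from -0.002 to 0.128 and from -0.120 to 0.040, and the dim ones of ITGB4 from -0.160 to 0.010, from -0.007 to 0.143 and from -0.007 to 0.243. ITGB7 ran from -0.042 to 0.028, PTK2 from -0.005 to 0.115, SH3GL2 from -0.003 to 0.087 and VCL from -0.080 to 0.083. Signal over background limits what can be seen at the 18 dim probe sets.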
